A study of Bos taurus with 6 samples.

Results

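The ZNF genes are the numbered zinc finger genes of the cattle genome, and the set described here comprised those that were expressed in untreated rumen epithelial primary cells (REPC). Members were all rows of the expression tables with a name made of ZNF, a number and at most 1 further letter and with a mean of at least 1 FPKM over the control cultures. FPKM, fragments per kilobase of transcript scaled to the mapped fragments of each culture, is a level per length. Of the 32183 rows in the tables, 283 carried a ZNF name and 197 of them met the threshold. These 197 rows hold 196 names, because ZNF75D stood on 2 rows of chromosome X. The members were thus chosen by their control FPKM, which is also 1 arm of each fold change, so counts over the members are descriptions, set beside the same count over all genes tested.

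Most ZNF proteins carry arrays of C2H2 zinc fingers, in which cysteine and histidine residues hold a zinc ion and each finger reads a few bases of DNA. Many of them begin with a KRAB box, a domain that binds TRIM28 (KAP1), which in turn brings histone deacetylases of the NuRD complex, the histone methyltransferase SETDB1 and HP1 proteins to the bound site. Others have a SCAN domain, bind RNA, work in ribosome assembly or the mitotic spindle, or recruit other corepressors. The KRAB genes arose by tandem duplication and stand in long clusters of neighbours. Butyrate, a fermentation product taken up by the rumen epithelium, inhibits histone deacetylases.

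All cells of the cultures used here were REPC of a single animal, a male Holstein calf aged 2 weeks and fed milk replacer alone. RNA-seq covered 3 cultures kept with 5 mM butyrate in the medium for 24 h and 3 control cultures without added butyrate. The labels number the cultures 1 to 3 in each group, and the study's methods call them biological replicates without saying how they were grown apart. The p-values measure the spread between cultures of 1 animal. The tables gave between 16051 and 16193 rows above 0 in the controls and between 17306 and 17510 with butyrate, and they hold no counts.

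The cells were checked against cell type markers. All 15 epithelial markers were in the tables and above 0.1 FPKM in at least 1 culture, with KRT17 at a mean of 3858.5 FPKM in the controls, while CA1 and SLC14A1, genes of carbonic anhydrase activity and urea transport in the mature rumen wall, were below 0.1 FPKM in every culture. Fibroblast markers were also present, and their summed level was 5525.3 to 5797.8 FPKM in the controls and 8510.6 to 9225.3 FPKM with butyrate, with 9 of 9 tested markers called higher. The 15 epithelial markers summed to 6324.5 to 6609.5 FPKM in the controls and 9162.8 to 9474.0 FPKM with butyrate (11 called higher, 1 lower). The 4 smooth muscle markers summed to 5669.1 to 5973.5 and 2656.2 to 3215.9 FPKM (1 called higher, 3 lower). Summed endothelial markers stood at 1.95 to 2.07 and 6.47 to 8.41 FPKM with CDH5 below 0.1 throughout, and summed immune markers at 0.492 to 0.674 and 1.22 to 1.33 FPKM with PTPRC below 0.1 throughout. The part of these shifts in the ZNF results was not tested, and in bulk samples fewer cells of a type and less RNA per cell cannot be told apart.

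ZNF genes were expressed at low levels. The mean control FPKM of the 197 members ran from 1.03 to 110.7 with a median of 2.95, against a median of 12.18 over all 11456 tested genes at or above the same threshold. A control level under 5 FPKM was found for 135 members (68.5%), compared with 28.8% of those 11456 genes. Only 28 members reached 10 FPKM, 14 reached 20 FPKM and 1, ZNF706, exceeded 100 FPKM. The 197 rows together summed to 1389.4 to 1437.8 FPKM per control culture and 1373.1 to 1412.2 FPKM per butyrate culture. As a share of all FPKM this was 0.204 to 0.212% in the controls and 0.222 to 0.225% with butyrate. The summed FPKM of the 2 groups overlapped and the shares did not, while the total over all rows was 678035 to 681912 FPKM in the controls and 619401 to 629037 FPKM with butyrate.

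The 5 members with the highest control level were ZNF706, ZNF771, ZNF593, ZNF207 and ZNF622. ZNF706, a small protein with a single zinc finger, had 109.0, 112.6 and 110.6 FPKM in the controls and 122.3, 121.5 and 113.1 FPKM with butyrate. All butyrate values lay above all control values, but the difference did not pass the test (log2 fold change 0.10, 95% interval -0.0064 to 0.21, limma, adjusted p = 0.0957). ZNF771 had 80.4, 84.8 and 97.1 FPKM in the controls and 85.6, 93.6 and 95.4 FPKM with butyrate, with overlapping groups (adjusted p = 0.470). The other 3 were called lower and are described with their roles. These abundant members are proteins outside the KRAB group.

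At the threshold, the members just inside it were ZNF713, with 0.918, 1.43 and 0.737 FPKM in the controls and 0.881, 1.31 and 0.751 with butyrate, and ZNF282, with 1.20, 0.385 and 1.51 in the controls and 0.999, 0.484 and 0.451 with butyrate. Just outside stood ZNF740, with 1.29, 0.765 and 0.903 FPKM in the controls and 0.846, 0.506 and 0.543 with butyrate, and ZNF10, with 0.981, 1.21 and 0.745 in the controls and 1.31, 1.08 and 1.22 with butyrate. The order of such genes around 1 FPKM is within the spread between cultures. Under butyrate the mean of 9 members was below 1 FPKM.

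ZNF genes called higher and lower with butyrate were nearly equal in number. Of the 197 members, 107 (54.3%) had a positive and 90 a negative log2 fold change, against 55.0% positive and 45.0% negative over all tested genes. At an adjusted p under 0.05 (limma, two-sided, Benjamini-Hochberg over all 15813 tested genes), 34 members (17.3%) were higher and 33 (16.8%) were lower with butyrate, and 130 were not called. Over all tested genes, 32.5% were called higher and 25.9% lower, or 58.4% in either direction. Over the 11456 genes at the members' control threshold the shares were 29.2% higher and 34.6% lower, 63.8% in all, against 34.0% of the members. The split of the calls depended on how cultures were scaled to each other: it was 49 higher and 23 lower after rescaling each culture to the same FPKM sum, 29 and 42 after centring each culture on its median, and 23 and 51 after quantile normalization. The last 2 of these put more members below 0 than above it, so no net direction of the family is given.

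**Figure D1:**
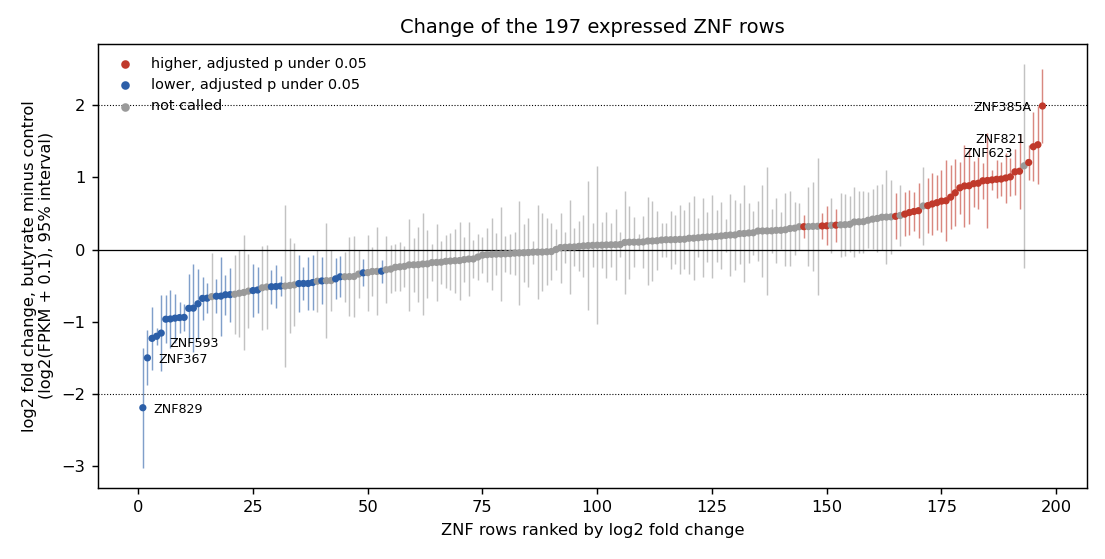
The 197 ZNF rows ranked by log2 fold change, butyrate minus control on the log2(FPKM + 0.1) scale, with the 95% interval of each as a vertical line, and dotted lines at a log2 fold change of 2 in size. The values ran from -2.19 for ZNF829 to 1.99 for ZNF385A, and the 34 called higher (red) and 33 called lower (blue) stood at the ends with 130 not called (grey) between and among them.

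The size of the changes was also modest. The log2 fold changes had a median of 0.058, with quartiles at -0.32 and 0.32, and an SD across members of 0.561, compared with an SD of 1.22 across all tested genes and 0.983 across those at the control threshold. A called change of more than 2-fold (log2 fold change beyond 1) was found in 12 members (6.09%), 7 higher and 5 lower, compared with 25.2% of all tested genes and 19.1% of those at the threshold. The cut-offs for a differentially expressed gene, a Bonferroni p under 0.05 with a log2 fold change beyond 2, were taken from the study, which applied them to a differential test made with Cufflinks. Applied here to limma on log2(FPKM + 0.1), which understates the change of low genes, they were met by no member and by 627 of the 15813 tested genes (3.97%). In the same limma test 80 members had an unadjusted p under 0.05, beside 9919 of the 15813 tested genes. The Bonferroni limit was passed at any size of change by 4 members (2.03%), ZNF593, ZNF511, ZNF580 and ZNF623. It was passed by 12.8% of all tested genes and by 15.9% of those at the threshold.

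The spread between cultures was as follows. All 3 butyrate values lay above all 3 control values in 46 members and below them in 44, and the groups overlapped in 107. Over all tested genes, 36.1% lay wholly above, 28.9% wholly below and 65.0% in either direction. The median coefficient of variation was 12.5% in the controls and 11.7% with butyrate for the members, compared with 7.82% and 8.20% for tested genes at the same threshold. The confidence bounds in the tables imply a median of 76.3 to 86.7 fragments per member and culture, and 11 members had under 10 in at least 1 culture. For 57 members (28.9%) the whole 95% interval lay within a 1.5-fold change in either direction. This was so for 25.7% of all tested genes and 35.4% of those at the threshold. The interval crossed 0 in 117 members, beside 5894 of all 15813 tested genes and 3703 of the 11456 at the threshold.

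Read against genes of a similar level, the share of members called higher was below that of all tested genes in each of 5 level classes, and the share called lower was nearer to it. Between 1 and 2 FPKM, 8 of 59 members (13.6%) were called higher and 1 (1.69%) lower, compared with 33.2% and 10.5% of all tested genes of that level. Between 2 and 5 FPKM the shares were 19.7% and 15.8% of 76 members, compared with 32.9% and 18.0%. Between 5 and 10 FPKM they were 17.6% and 26.5% of 34 members, compared with 31.7% and 28.0%. The 14 members between 10 and 20 FPKM had 14.3% called higher and 28.6% lower, compared with 28.6% and 34.8%. At 20 FPKM or more, 3 of 14 members (21.4%) were called higher and 7 (50.0%) lower, compared with 25.5% and 52.0%. The median SE of the log2 fold change between 1 and 2 FPKM was 0.237 for the members and 0.241 for all tested genes of that level. The differences in share between members and other genes were not tested.

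**Figure D2:**
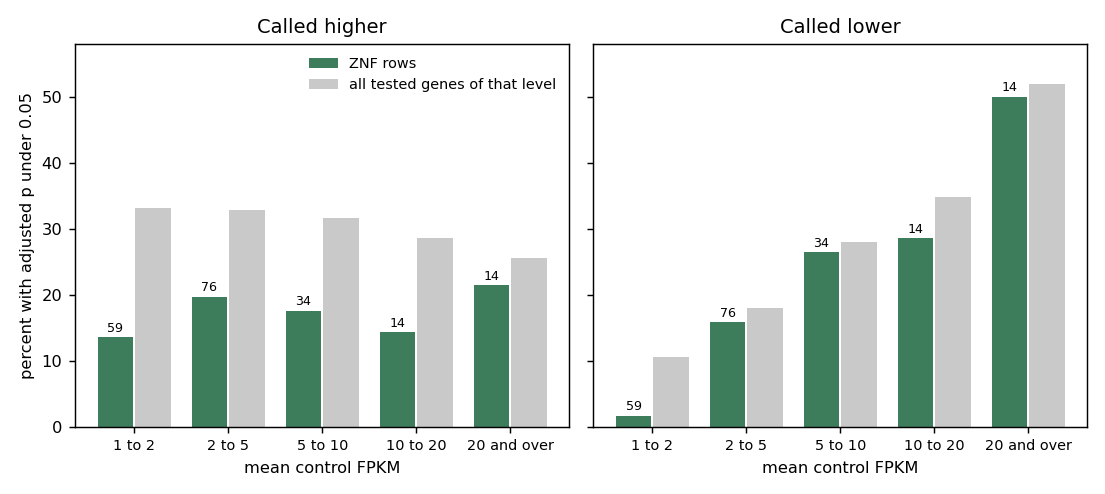
Percent of ZNF rows (green, with their number above the bar) and of all tested genes (grey) called higher (left) or lower (right) with butyrate at an adjusted p under 0.05, by mean control FPKM. The share called lower rose with the level in both sets, from 1.69% to 50.0% of the ZNF rows, and the green bars for calls higher stayed under the grey bars in all 5 classes.

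The 12 largest called rises were led by ZNF385A, an RNA-binding zinc finger protein that also modulates p53 target choice. It had 2.28, 2.76 and 1.54 FPKM in the controls and 10.6, 7.69 and 8.25 FPKM with butyrate. Its butyrate mean was 4.03 times the control mean, and all butyrate values were well above the controls (log2 fold change 1.99 ± 0.22 SE, adjusted p = 8.04e-05). ZNF821 followed, from 1.56, 0.8995 and 1.05 FPKM to 2.85, 3.798 and 3.29 FPKM (1.45 ± 0.23), and ZNF70, from 1.47, 1.19 and 1.02 FPKM to 3.58, 3.98 and 2.82 FPKM (1.42 ± 0.21). Each of these 3 genes stood under 3 FPKM in every control culture. The ZNF821 row overlaps that of the microRNA MIR2328, and its lowest implied number of fragments in a culture was 7.075.

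ZNF623 had 3.56, 3.51 and 3.32 FPKM in the controls and 8.31, 8.16 and 7.85 FPKM with butyrate, a narrow spread that gave an adjusted p of 2.21e-05 in limma for a log2 fold change of 1.21 ± 0.11. ZNF419, a KRAB protein, had 4.14, 3.86 and 5.36 FPKM against 9.13, 9.81 and 9.30 with butyrate (1.08 ± 0.14). ZNF512 went from 4.16, 4.76 and 3.97 FPKM to 8.48, 9.10 and 8.57 (1.01 ± 0.11). In all 3 the lowest butyrate value was over 1.5 times the highest control value. ZNF277 went from 11.6, 9.45 and 10.4 FPKM to 18.9, 22.1 and 21.2 FPKM (0.98 ± 0.10). ZNF22, first described as a gene of tooth development, went from 6.88, 5.80 and 6.80 FPKM to 11.8, 12.4 and 14.3 FPKM (0.97 ± 0.12).

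The most abundant member called higher was ZNF580. It had 43.3, 46.9 and 42.1 FPKM in the controls and 86.4, 89.7 and 82.3 FPKM with butyrate, 1.95 times the control mean (log2 fold change 0.96 ± 0.061, adjusted p = 2.73e-06 in limma). ZNF687, a partner of the chromatin reader ZMYND8, had 1.31, 1.05 and 2.28 FPKM in the controls and 3.25, 2.37 and 3.28 FPKM with butyrate. Its highest control value and lowest butyrate value nearly met, and its adjusted p of 0.0191 rose above 0.05 in 5 of the alternative analyses, to between 0.0586 and 0.0905. The remaining 2 of the 12, ZNF197 and ZNF35, are neighbours and are described with their position.

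**Figure D3:**
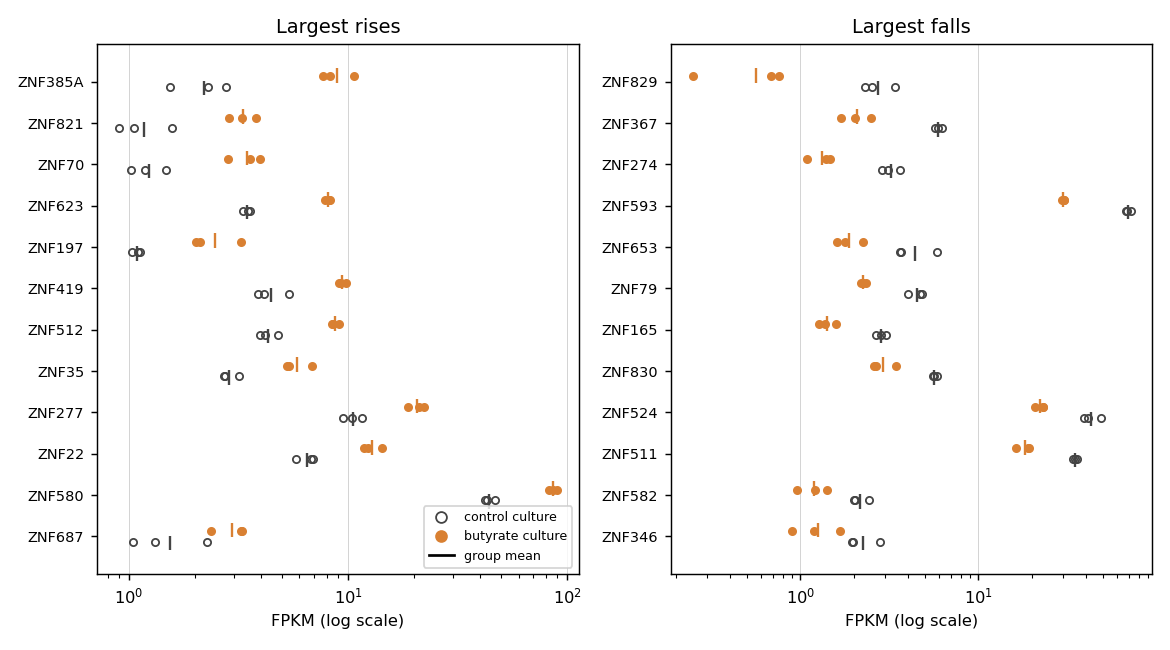
FPKM per culture, on a log scale, of the 12 members with the largest called rises (left) and the 12 with the largest called falls (right), with open points for the control cultures, filled points for the butyrate cultures and vertical lines for the group means. No control value overlaps a butyrate value in these 24 genes, as their choice required, and ZNF829 has the lowest value, 0.248 FPKM in butyrate culture 1.

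The largest fall was that of ZNF829, a KRAB gene, from 3.39, 2.51 and 2.32 FPKM in the controls to 0.248, 0.755 and 0.683 FPKM with butyrate (log2 fold change -2.19 ± 0.36, adjusted p = 0.000867). Its control mean was 4.88 times its butyrate mean. The lowest implied number of fragments of ZNF829 in a culture was 4.27, so its size of change is uncertain. The row lies on chromosome 18 from 47410646 to 47423212 and overlaps the row of ZNF585A, which was under the threshold in the controls (0.372, 0.352 and 0.518 FPKM) and moved the other way, to 0.964, 1.17 and 1.11 FPKM with butyrate (log2 fold change 1.21, adjusted p = 0.00410). Strand use in the counting was not given in the sources used here, so reads of such overlapping rows cannot be told apart with certainty. In all, 56 of the 197 members overlapped another row.

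ZNF367 had 5.68, 5.94 and 6.28 FPKM in the controls and 1.69, 2.48 and 2.03 FPKM with butyrate (log2 fold change -1.499 ± 0.17). ZNF653, a repressor of the nuclear receptor SF-1, had 3.61, 5.88 and 3.70 FPKM against 1.61, 1.79 and 2.26 FPKM (-1.16 ± 0.23). In both, the highest butyrate value was well under the lowest control value. ZNF79, a KRAB gene, went from 4.84, 4.68 and 4.002 FPKM to 2.24, 2.35 and 2.18 FPKM (-0.96 ± 0.14). ZNF165, a SCAN gene known for expression in testis, went from 3.02, 2.65 and 2.83 FPKM to 1.58, 1.27 and 1.38 FPKM (-0.96 ± 0.17).

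Among abundant members, ZNF524, a protein that binds telomeric repeats, had 39.0, 41.1 and 49.1 FPKM in the controls and 23.1, 23.0 and 20.8 FPKM with butyrate (-0.94 ± 0.095, adjusted p = 4.27e-05 in limma). ZNF511 had 34.0, 35.8 and 34.9 FPKM against 19.2, 19.1 and 16.3 FPKM (-0.94 ± 0.081, adjusted p = 1.66e-05 in limma). The lowest control value was over 1.5 times the highest butyrate value in both. The ZNF524 row overlaps that of FIZ1, and the ZNF511 row overlaps that of SORCS3.

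Members on lists of named roles were then taken by function, without a check for a KRAB box. Of the 8 members of the ribosome and RNA group 5 were called lower and none higher (none at an unadjusted p under 0.05 in limma either), at a median log2 fold change of -0.49, and after rescaling to equal FPKM sums 3 were called lower. Over all tested genes at the threshold 34.6% were called lower, and 52.0% of those at 20 FPKM or more, the level of ZNF593 and ZNF622. ZNF593, a nucleolar protein of large ribosomal subunit assembly, had 68.0, 67.5 and 71.6 FPKM in the controls and 29.5, 30.2 and 30.3 FPKM with butyrate. The drop to a butyrate mean of 30.0 FPKM from 69.0 FPKM had the smallest p of any member (log2 fold change -1.20 ± 0.053, adjusted p = 3.96e-07, limma). ZNF622, which acts late in the maturation of the same subunit, went from 58.9, 63.2 and 62.0 FPKM to 45.3, 51.3 and 53.1 FPKM, a fall of 0.30 on the log2 scale (adjusted p = 0.00587) that was not called after rescaling to equal FPKM sums.

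ZNF830, a protein tied to pre-mRNA splicing, had 5.55, 5.60 and 5.82 FPKM in the controls and 2.67, 2.59 and 3.46 FPKM with butyrate (-0.95 ± 0.15), and its row overlaps that of CCT6B. ZNF326, a part of the DBIRD complex that couples RNA polymerase II to splicing, went from 7.85, 6.97 and 9.13 FPKM to 4.74, 5.35 and 4.72 FPKM (-0.68 ± 0.13). ZNF346, which binds double-stranded RNA, went from 1.97, 2.81 and 1.94 FPKM to 0.894, 1.68 and 1.19 FPKM (-0.81 ± 0.27, adjusted p = 0.0284). In ZNF346 the highest butyrate value was close to the lowest control value, and the call was lost in 5 alternative analyses. The 3 others of the group were not called: ZNF598, which ubiquitinates stalled ribosomes, at control and butyrate means of 17.5 and 19.1 FPKM, ZNF638 at 10.9 and 11.1 FPKM and ZNF106 at 3.51 and 3.26 FPKM.

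Of the 3 members on the mitosis list, both called genes were lower. Over all tested genes at the threshold 34.6% were called lower, and 52.0% of those at 20 FPKM or more, the level of ZNF207. ZNF207 (BuGZ), which loads the checkpoint protein BUB3 at kinetochores, had 61.4, 58.3 and 66.2 FPKM in the controls and 42.7, 43.7 and 44.3 FPKM with butyrate, a fall of 0.51 on the log2 scale (adjusted p = 0.000128 in limma). ZNF367 is given above. ZNF451, a SUMO ligase, stood at means of 3.27 and 3.63 FPKM and was not called. The list's other gene, ZNF365, was not analysed here.

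Of 8 members listed as transcriptional activators and promoter factors, 3 were called lower and none higher. None was higher at an unadjusted p under 0.05 in limma either, and the median log2 fold change was -0.34. Whether each of the 8 acts as an activator was not checked, so the list name is no result. The share called lower over all tested genes at the threshold, 34.6%, was close to 3 of 8, and their median was -0.055. Rescaling to equal FPKM sums called 1, ZNF148, higher. ZNF76, a relative of the snRNA gene activator ZNF143, had 10.3, 10.6 and 9.85 FPKM in the controls and 6.26, 7.17 and 6.17 FPKM with butyrate (-0.65 ± 0.10). ZNF281, a factor of stem cell and mesenchymal programmes, went from 10.4, 10.7 and 9.32 FPKM to 6.60, 7.18 and 7.41 FPKM (-0.51 ± 0.10). ZNF24, a SCAN protein, went from 24.0, 20.9 and 22.6 FPKM to 18.3, 15.6 and 14.9 FPKM (-0.47 ± 0.098). The groups did not overlap in any of these 3. ZNF143 itself was at 4.56, 4.83 and 4.99 FPKM in the controls and 4.97, 5.62 and 5.56 FPKM with butyrate, with overlapping groups and no call (adjusted p = 0.262). ZNF148, ZNF263, ZNF384 and ZNF410 were not called.

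Of 9 members listed as partners of corepressors other than TRIM28, 1, ZNF687, was called higher and 2 were called lower. Over all 197 members 34.0% were called in either direction. Over all tested genes at the threshold 29.2% were called higher and 34.6% lower. After quantile normalization 0 of the 9 were called higher and 3 were called lower. ZNF644, which works with the histone methyltransferases G9a and GLP, had 7.86, 6.73 and 6.16 FPKM in the controls and 5.44, 4.97 and 5.44 FPKM with butyrate, a fall of 0.38 on the log2 scale (adjusted p = 0.0299) that was not called after rescaling to equal FPKM sums or when any of 5 of the 6 cultures was left out. ZNF518A went from 1.96, 1.74 and 1.79 FPKM to 1.26, 0.857 and 1.06 FPKM (-0.75 ± 0.21). ZNF217, which recruits CtBP and LSD1, had control and butyrate means of 3.20 and 3.97 FPKM and was not called, nor were ZNF592, ZNF532, ZNF219, ZNF827 and ZNF518B.

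On the list of development and epithelium, 3 of 8 genes were members. Of these, 2 were called higher, beside 29.2% of all tested genes at the threshold. ZNF503, a repressor of the luminal factor GATA3, had 5.66, 5.40 and 6.54 FPKM in the controls and 11.9, 11.6 and 10.8 FPKM with butyrate (log2 fold change 0.95 ± 0.11, adjusted p = 9.12e-05 in limma). ZNF385A, above, was the other called gene. ZNF462 stood at means of 1.53 and 1.501 FPKM. ZNF750, a regulator of terminal differentiation in epidermis, was listed at 0 in 3 cultures and reached at most 0.191 FPKM, and ZNF521 was listed at 0 in all 6.

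Of the 5 listed KRAB genes with a known chromatin role, 3 were members, and 1 of these, ZNF274, was called lower. Over all tested genes at the threshold 34.6% were called lower. ZNF202 was under the threshold, at a control mean of 0.974 FPKM, and was not called (log2 fold change -0.80). ZNF224 had no row under that name. ZNF274 is known for bringing SETDB1 to the 3′ ends of ZNF genes. ZNF274 had 3.12, 3.64 and 2.87 FPKM in the controls and 1.40, 1.47 and 1.08 FPKM with butyrate (log2 fold change -1.23 ± 0.19, adjusted p = 0.000614), and its row overlaps that of LOC104974972. ZNF445, a regulator of genomic imprinting, had 1.13, 1.497 and 0.903 FPKM in the controls and 2.01, 1.59 and 1.83 FPKM with butyrate, with no overlap between groups but an adjusted p of 0.0538. ZNF268 had 1.45, 1.44 and 0.331 FPKM against 0.897, 0.866 and 1.10 FPKM, and its control culture 3 alone was low.

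The partners that KRAB proteins work through, none of them members, had more calls lower than higher. Of 27 genes of the KRAB corepressor machinery, 12 were called lower, 3 higher and 12 were not called, and under the other 3 scalings the counts were 11 to 14 lower and 1 to 4 higher. Over all tested genes at the members' control threshold 34.6% were called lower and 29.2% higher. The 15 calls among 27 genes were thus no more than the 63.8% called there. Of tested genes at 20 FPKM or more, 52.0% were called lower and 25.5% higher. TRIM28, CBX3, CBX5, MTA2, RBBP4 and RBBP7, all called lower, stood at that level in the controls. TRIM28, the KRAB-binding scaffold, had 79.4, 82.1 and 77.2 FPKM in the controls and 54.7, 52.5 and 53.1 FPKM with butyrate, a fall of 0.57 on the log2 scale (adjusted p = 1.77e-05, limma). The HP1 genes CBX3 and CBX5 went from means of 74.4 to 38.4 FPKM and from 50.3 to 19.5 FPKM, while CBX1 (4.62 and 4.69 FPKM) was not called. The largest falls were in UHRF1 and SUV39H1, of maintenance DNA methylation and H3K9 methylation, from 17.1 to 0.946 FPKM and from 4.40 to 0.270 FPKM, and both met the cut-offs for a differentially expressed gene in limma. SETDB1 was low, at 1.06 and 1.26 FPKM, and was not called. ATF7IP, the partner of SETDB1, was called higher (4.22 to 6.25 FPKM), as were MTA1 and GATAD2A of NuRD, whereas MTA2, MBD3, CHD3, RBBP4 and RBBP7 of NuRD were called lower.

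**Figure D4:**
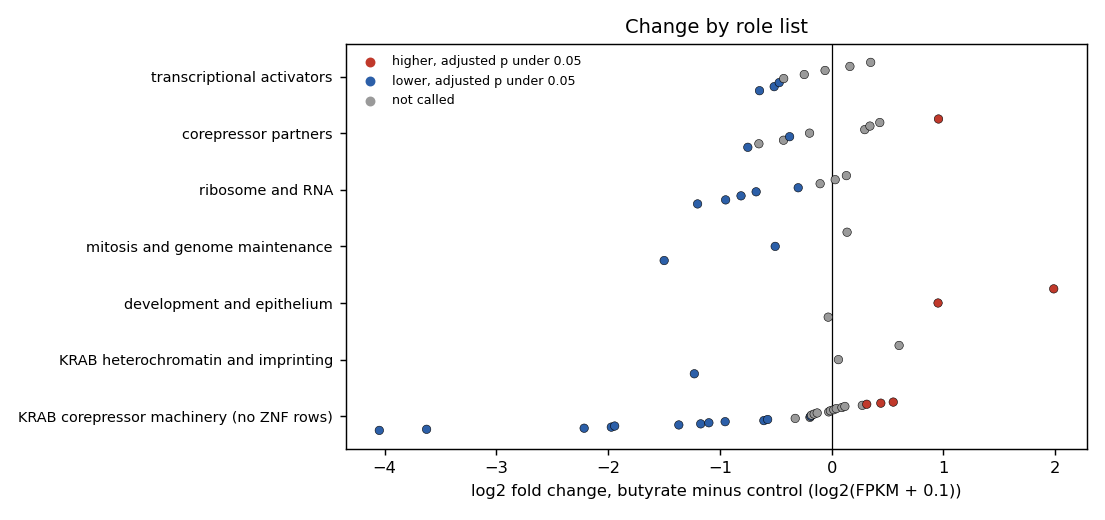
Log2 fold change, butyrate minus control on the log2(FPKM + 0.1) scale, of the ZNF rows on 6 role lists and of 27 KRAB corepressor genes, with red for called higher, blue for called lower and grey for not called. In the ribosome and RNA row 5 of 8 points are blue and none red, and in the corepressor machinery 12 of 27 are blue, down to -4.05 for UHRF1.

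The members were unevenly placed in the genome. They stood on 28 chromosomes, and chromosome 18 alone held 58 (29.4%), compared with 5.59% of all tested genes at the control threshold. Chromosome 25 held 19 and chromosome 7 held 14. On chromosome 18, 8 members were called higher and 7 lower with a median log2 fold change of 0.085, compared with 26 higher and 26 lower among the 139 members elsewhere, at a median of 0.055. The 582 other tested genes of chromosome 18 at the threshold had 28.7% called higher and 35.7% lower, compared with 13.8% and 12.1% of its ZNF members. The control median of the chromosome 18 members, 2.18 FPKM, was below the 3.54 FPKM of those elsewhere and the 11.9 FPKM of the other genes on that chromosome.

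Runs of neighbouring ZNF genes often held both positive and negative log2 fold changes. Members not more than 250 kb apart formed 14 runs of at least 3, holding 73 members. Calls in both directions were found in 4 runs, in 1 direction in 6 runs, and 4 runs had none. The longest, 10 members of chromosome 18 from ZNF146 to ZNF420, had 1 call, the fall of ZNF829, and its other 9 members had log2 fold changes between -0.52 and 0.29. Among pairs of next neighbours within 100 kb, 28 of 57 ZNF pairs (49.1%) had the same sign, compared with 52.0% of 8393 pairs over all tested genes at the threshold.

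**Figure D5:**
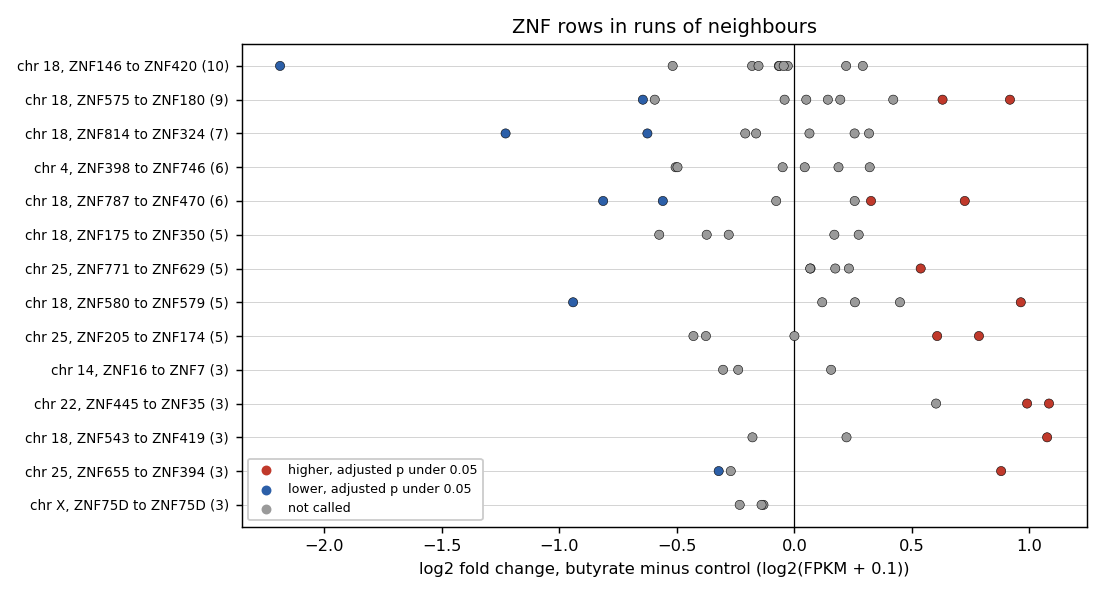
Log2 fold change, butyrate minus control on the log2(FPKM + 0.1) scale, of the 73 members in the 14 runs of neighbouring ZNF rows, 1 line per run with its chromosome, first and last gene and number of members, in red for called higher, blue for called lower and grey for not called. Most lines have points on both sides of 0, and only the chromosome 22 run and 1 chromosome 25 run lie wholly above it and the chromosome X run wholly below it.

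Both patterns were found among close neighbours. On chromosome 22, ZNF197, a KRAB and SCAN gene, had 1.12, 1.09 and 1.03 FPKM in the controls and 2.11, 2.03 and 3.25 FPKM with butyrate (1.08 ± 0.23). ZNF35, whose row begins 0.48 kb further on, had 3.17, 2.74 and 2.72 FPKM against 5.28, 6.87 and 5.38 FPKM (0.99 ± 0.15). Both genes were called higher, and every butyrate value was over 1.5 times the control mean of its gene.

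Opposite calls were found close together in other places. In 5 pairs of next neighbours within 100 kb both members were called, and 3 of these pairs had opposite calls. Over all tested genes at the threshold this was so in 1596 of 3551 such pairs, so opposite neighbours were common there too. ZNF580 and ZNF524, called higher and lower, lie 35.4 kb apart on chromosome 18 with the uncalled members ZNF784 and ZNF865 between them, and had control means of 44.1 and 43.1 FPKM. ZNF24 fell and ZNF397, 14.95 kb away on chromosome 24, rose from 3.19, 2.99 and 3.56 FPKM to 5.65, 5.93 and 7.05 FPKM (0.91 ± 0.14). On chromosome 18 ZNF667 rose from a mean of 1.32 to 2.26 FPKM, while ZNF583, 5.02 kb on, fell from 4.27 to 2.86 FPKM and ZNF582, next to it, fell from 2.02, 2.01 and 2.44 FPKM to 0.959, 1.41 and 1.21 FPKM (-0.81 ± 0.21). ZNF655 and ZNF789 on chromosome 25 were likewise called lower and higher. The ZNF397 row overlaps that of ZSCAN30, and the rows of ZNF667, ZNF583 and ZNF655 overlap unnamed loci. Only uniquely mapped reads were used by the authors, so levels of members with near-identical neighbours are uncertain.

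ZNF rows under the control threshold were not members. There were 86, of which 11 were listed at 0 in every culture, 68 could be tested and 15 reached a mean of 1 FPKM with butyrate. The threshold on the controls leaves such genes out, so counts of members called higher do not include them. ZNF296 had 0.932, 0.204 and 0.598 FPKM in the controls and 3.73, 2.38 and 3.79 FPKM with butyrate. ZNF516, a CtBP partner, had 0.426, 0.454 and 0.507 FPKM against 1.76, 1.96 and 1.85 FPKM. ZNF467 was listed at 0 in the 3 controls and had 1.09, 1.14 and 0.800 FPKM with butyrate. All 3 were called higher, and they are named here after their values were seen. With a mean of at least 1 FPKM in the butyrate cultures as the rule, 203 rows were members, with 44 called higher and 32 lower. This rule picks rows by their butyrate values and so favours genes that rose. The surplus of calls higher is therefore no result about the family, and the share over all genes under that rule was not computed.

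Other zinc finger families at the same control threshold gave the following counts, beside 29.2% called higher and 34.6% called lower over all tested genes at that threshold. Of 24 ZBTB rows, which combine a BTB domain with zinc fingers, 6 were called higher and 3 lower at a median log2 fold change of -0.042. Of 11 ZFP rows 3 and 4 were called, with a median of 0.12, and of 10 ZSCAN and ZKSCAN rows 4 and 0, with a median of 0.33 and 9 values above 0. In limma 0 ZSCAN or ZKSCAN rows were lower at an unadjusted p under 0.05 as well, and the differences between families were not tested.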

How the data were processed

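RNA-seq was made from 6 REPC cultures, 3 with 5 mM butyrate for 24 h and 3 controls. The authors trimmed reads with Trim Galore 0.4.1, aligned them with STAR, kept uniquely mapped reads and deposited gene-level FPKM values from Cufflinks with the confidence bounds of each FPKM. The submitters' processing notes name UMD3.1, and positions are given as the tables give them. Each sequence was given the chromosome that held the majority of its gene symbols in the RefSeq table of ARS-UCD2.0, from which no position was taken.

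The tables hold no counts, so no count test was run. Fragments per gene were approximated from the upper confidence bound, as the square of the FPKM over its implied standard deviation. Differences were tested with limma 3.58.1 in R 4.3.3, two-sided, on log2(FPKM + 0.1) with its mean-variance trend option. A mean FPKM of 0.1 or more over the cultures was required, which kept 15813 genes. A failed estimate removed 2 rows. A gene was called at a Benjamini-Hochberg adjusted p under 0.05 over all tested genes. Fold changes on this scale understate the change of low genes, and ratios of means are given as such. The members and all gene lists were chosen with earlier results of these data known. Named genes are the 12 largest called rises and falls whose groups do not overlap, the 5 highest in the controls, those next to the threshold and the role lists. Called neighbours, overlapping rows and genes under the threshold were named after their values were seen. Runs joined members up to 250 kb apart. Alternatives were 2 other pseudocounts, other filters, scalings and memberships, no trend, a replicate block and each culture left out. Protein classes such as KRAB and SCAN were not computed, and those named come from general knowledge.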

Additional observations from a re-analysis of the deposited data

How the results depend on the processing

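Scaling had the largest influence on the family. The median log2 fold change over all tested genes, 0.10 in the analysis reported, moved by 0.14 with rescaling to equal FPKM sums, by -0.15 with quantile normalization and by -0.10 with median centring. The median of the 197 members moved from 0.058 to 0.18, -0.18 and -0.045 in that order. Quantile normalization left 71 members above 0 and called 51 lower, and of the 138 members with a control mean of at least 2 FPKM 71 were above 0. Leaving out each culture in turn gave 29 to 34 calls higher, 26 to 33 lower, 101 to 110 members above 0 and medians of 0.011 to 0.064. With the replicate number as a block 33 members were called higher and 31 lower, and 63 of these 64 were among the 67 called without it. Cultures with the same number did not deviate together (correlations 0.0228, -0.00431 and 0.00177), so the numbers were not taken as pairs. In all these alternatives 0 members met the cut-offs for a differentially expressed gene, and no call in both analyses changed direction. Of the 24 members with the largest called changes, ZNF346 and ZNF687 lost the call in at least 1 alternative.

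Signs were followed gene by gene only for members with the largest called changes, the highest control levels or a place on a role list. Among these, values that changed sign were all close to 0 or uncalled, and they are listed here. Members above 0 numbered 107 in the analysis reported, 124 with equal FPKM sums, 88 with median centring and 71 with quantile normalization. Other members thus changed sign as well and are not listed. With median centring the log2 fold change was -6.6e-05 for ZNF706, -0.034 for ZNF771, -0.071 for ZNF638 and -0.043 for ZNF268. With equal FPKM sums it was 0.064 for ZNF410, 0.017 for ZNF106 and 0.087 for ZNF462. With quantile normalization it was -0.061 for ZNF451 and -0.48 for ZNF268, and with a pseudocount of 1 it was -0.030 for ZNF268. With 1 culture left out it ran from -0.13 to 0.038 for ZNF410, -0.0086 to 0.098 for ZNF638, -0.13 to 0.033 for ZNF462, and -0.55 (without control culture 3) to 0.37 for ZNF268. The cause was not tested. Depth was lowest for 11 members, with under 10 implied fragments in at least 1 culture.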
